A study of Mus musculus with 9 samples.

Results

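The antiviral interferon-stimulated genes are the genes that cells switch on when an interferon receptor signals, and whose products sense, cut, modify or trap the nucleic acids and proteins of viruses. Earlier results of these data were known when the members were chosen. They were chosen by name, as a list of 45 gene symbols, and not by their values. Of these, 35 were found among the 13152 genes with a value on the arrays, 33 under the symbol deposited with the array and 2, Dhx58 and Cmpk2, under an older symbol for the same gene. They lie on 54 probe sets, and where a member had several, the one with the highest mean over the 9 arrays stood for it. Bst2, Ifi204 and Ifi205 appeared only on probe sets that name several genes, and Isg15, also listed as G1p2, Ddx58, Xaf1, Samd9l, Phf11 and Herc6 had no matching probe set, so these were not analysed here. The deposited symbols Ifi27 and Trim30 are Ifi27l2a and Trim30a in the current annotation.

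Type I interferons (the alpha and beta families) bind the Ifnar1 and Ifnar2 receptor chains, and the kinases Jak1 and Tyk2 then activate transcription factors, among them Stat2, which joins Irf9 in a complex that binds the interferon-stimulated response element in promoters. Interferon gamma, which activated CD8+ T cells secrete, signals through Ifngr1 and Ifngr2 and switches on an overlapping set of genes. In T cells these genes can mark recent exposure to interferon, which was not measured here. Feedback inhibitors such as Usp18 and Socs1 limit how long the signal lasts.

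The arrays compared CD8+ T cells of 3 kinds in a mouse model of graft-versus-host disease (GVHD), the attack of transplanted donor lymphocytes on the host's organs. Postmitotic cells (CD44-lo, CD62L-hi) and effector cells (CD44-hi, CD62L-lo, called effector memory cells in the labels) were purified from the pooled T cells of 4 male B6/SJL recipients per preparation. The recipients had been lethally irradiated with 10 Gy and given CD44-lo CD62L-hi CD8+ T cells of normal female C3H.SW donors with T cell-depleted bone marrow 14 days earlier. Naive cells (CD44-lo, CD62L-hi) were purified from 2 pooled normal female C3H.SW mice per preparation. Each group had 3 arrays, called biological replicates in the labels. Irradiation, transplantation and the recipient strain are thus shared by postmitotic and effector cells and absent from naive cells, and against naive cells these cannot be told apart from cell state. Ages and housing are not given in the sources used here.

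Values are log2 signals on which a probe set with zero signal reads 6.64, so differences of dim genes are understated. The T cell genes Cd3d, Cd3e, Cd3g, Cd2, Thy1 and Cd8b1 lay between 10.84 and 14.48 on every array. Cd44 averaged 7.33 ± 0.40 in postmitotic, 11.11 ± 0.20 in effector and 7.28 ± 0.33 in naive cells (SD, n = 3 each). Of 5 NK cell markers, Klrb1c was at or below zero signal on all 9 arrays, whereas Nkg7, also a gene of cytotoxic T cells, was called higher in postmitotic (log2 0.49) and effector (1.34) than in naive cells. The summed linear signal of the 5 ranged from 20757 to 21515 in postmitotic, 36574 to 39458 in effector and 14766 to 15269 in naive cells. Nkg7 averaged 14.36, 15.21 and 13.87 in postmitotic, effector and naive cells and made up most of each sum. Of the 5 markers, 3 had means at or below zero signal in all groups. The summed linear signal of 7 B and plasma cell markers ranged from 559 to 758 in postmitotic, 611 to 745 in effector and 694 to 794 in naive cells. That of 11 myeloid markers ranged from 1182 to 3152 in postmitotic, 3004 to 7039 in effector and 2650 to 3380 in naive cells. That of 8 dendritic cell markers ranged from 2870 to 6215, from 4433 to 5077 and from 8097 to 9171 in postmitotic, effector and naive cells. Among these 8, Ccr9, also a homing receptor of T cells, was called lower in postmitotic (-1.95) and effector (-3.92) than in naive cells. Ccr9 averaged 10.92, 8.94 and 12.86 in postmitotic, effector and naive cells, and it made up most of the naive sum. Itgax, H2-Aa and H2-Ab1 were called higher in effector than in naive cells (1.23, 1.87 and 2.19). H2-Aa read 11.14, 9.09 and 9.33 in postmitotic, 11.11, 11.04 and 10.90 in effector and 9.08, 9.35 and 9.01 in naive cells. Among the B and plasma cell markers, Jchain was called higher (1.28) and Cd79b lower (-1.15) in effector than in naive cells. Postmitotic minus effector cells gave -1.87 for Jchain and 1.15 for Cd79b, both called. Among the myeloid markers, Cd68 was called higher (1.76) and Cd14 lower (-0.92) in effector than in naive cells. Csf1r, Adgre1 and Cd68 were called lower in postmitotic than in effector cells (-1.92, -0.63 and -1.81). The part of other cells in the results below was not tested. Postmitotic array 3 and effector array 3 stood apart by Y-linked signal of the male recipients: Eif2s3y read 11.47 and 9.50 on them, against at most 7.02 on the other 7 arrays. Xist, a transcript of female cells, read 12.07 on postmitotic array 3 and 13.01 on effector array 3, against at least 13.07 on the other 7. The 2 arrays were thus not alike, and the share of recipient cells was not tested. Counts of members are therefore also given without both arrays.

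Interferon-stimulated genes that passed the test against naive cells were all higher in postmitotic cells, and in effector cells all but Daxx were higher. The members highest in the 2 recipient populations were not the same: Ifit3 (log2 1.70 over naive), Usp18 and Dhx58 led in postmitotic cells and Ifitm1 (3.17), Dhx58 and Rsad2 in effector cells. Limma called 18 of the 35 members higher in postmitotic cells than in naive cells and 0 lower at an adjusted p under 0.05. Among all genes, 6.13% were called higher and 5.70% lower in that comparison, 11.8% in either direction. In effector cells 16 members were called higher and 1, Daxx, lower than in naive cells, where 14.5% of all genes were called higher, 16.3% lower and 30.8% in either direction. Between postmitotic and effector cells 12 members were called higher and 4 lower in postmitotic cells, against 13.2% higher, 11.8% lower and 24.9% in either direction among all genes. At an unadjusted p under 0.05, limma gave 23 members higher and 0 lower in postmitotic minus naive cells (13.2% and 13.3% of all genes). It gave 17 and 2 in effector minus naive cells (17.9% and 21.8%) and 16 and 9 in postmitotic minus effector cells (19.3% and 16.1%). Without the arrays with Y-linked signal the counts were 16 higher and 0 lower in postmitotic minus naive cells, 14 and 1 in effector minus naive cells, and 8 and 2 in postmitotic minus effector cells. The shares of all genes called without those arrays are not given here. Fewer cells of a responding type and less RNA of a gene per cell cannot be told apart in such bulk samples.

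The median member differed by log2 0.67 between postmitotic and naive cells, where the median of all genes was -0.01, and the members ranged from -0.85 to 1.70. Positive differences were found for 33 of the 35, the exceptions being Ifitm2 and Ifi203, and 10 of the called members differed at least 2-fold. Between effector and naive cells the median member differed by 0.39 (all genes -0.06), over a range of -0.52 to 3.17, and 7 called members were at least 2-fold higher. For neither of these 2-fold counts is the share of all genes given here. Between postmitotic and effector cells the median was 0.22 (all genes 0.04) and the range -2.97 to 1.43. The comparisons with naive cells share the same 3 naive arrays. On single arrays, the median member stood 0.67, 0.71 and 0.49 above the naive mean in postmitotic cells and 0.43, 0.32 and 0.38 above it in effector cells. The 3 naive arrays themselves lay at -0.09, 0.09 and 0.00. Postmitotic array 3 was thus the lowest of its group and still higher than each effector array.

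**Figure D1:**
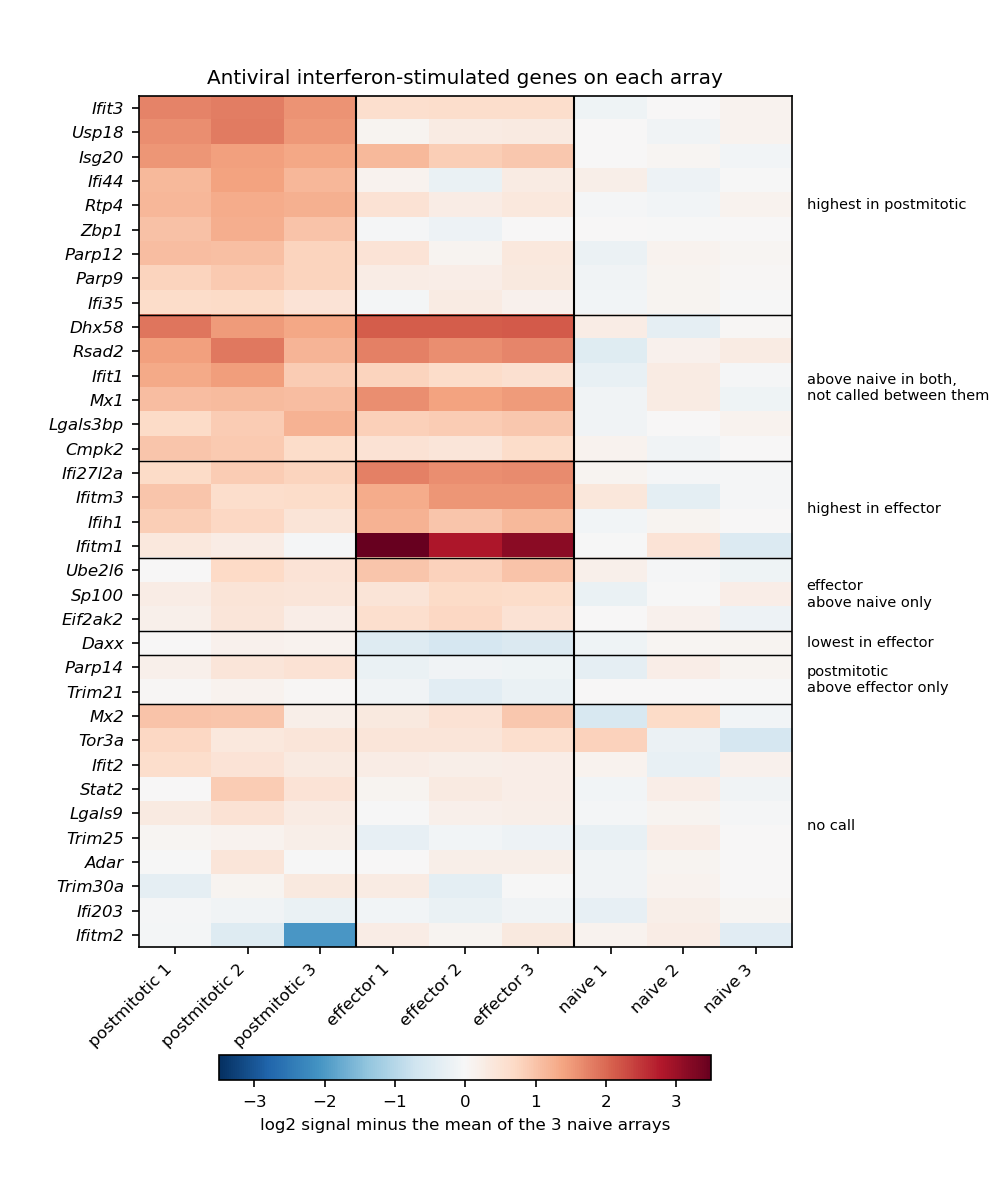
Each row is a member and each column an array, with postmitotic arrays on the left, effector arrays in the middle and naive arrays on the right. Colour gives the log2 signal minus the mean of the naive arrays, red above and blue below. The upper rows are red in postmitotic cells and paler in effector cells, whereas Ifitm1 is darkest in effector cells, 3.17 above the naive mean.

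The arrays of the groups did not overlap for 23 members higher and 0 lower in postmitotic than in naive cells, where the shares among all genes were 14.3% and 14.9%. In effector against naive cells, 18 members were higher and 2 lower without overlap (20.4% and 24.7% of all genes). In postmitotic against effector cells, 16 were higher and 9 lower without overlap (22.9% and 19.4% of all genes). All 18, 17 and 16 called members of the 3 comparisons were among these.

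The 3 comparisons together divided the members into distinct orders. A set of 9 members was called higher in postmitotic cells than in both other groups: Ifit3, Usp18, Isg20, Ifi44, Rtp4, Zbp1, Parp12, Parp9 and Ifi35. That is 25.7% of the members, and 1.84% of all genes had this order. Another 6, Dhx58, Rsad2, Ifit1, Mx1, Lgals3bp and Cmpk2, were called above naive cells in both recipient populations and not called between these (17.1%, against 1.76% of all genes). Ifi27l2a, Ifitm3, Ifih1 and Ifitm1 were called highest in effector cells (11.4%, against 9.25%). Ube2l6, Sp100 and Eif2ak2 were called higher in effector than in naive cells only (8.57%, against 3.25%). Daxx was called lowest in effector cells (2.86%, against 9.00%), and Parp14 and Trim21 were called higher in postmitotic than in effector cells only (5.71%, against 2.34%). The other 10 members had no call (28.6%, against 61.9%). An increase in postmitotic against naive cells alone was seen in 0 members and 0.684% of all genes, and 9.95% of all genes had other orders that 0 members had.

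**Figure D2:**
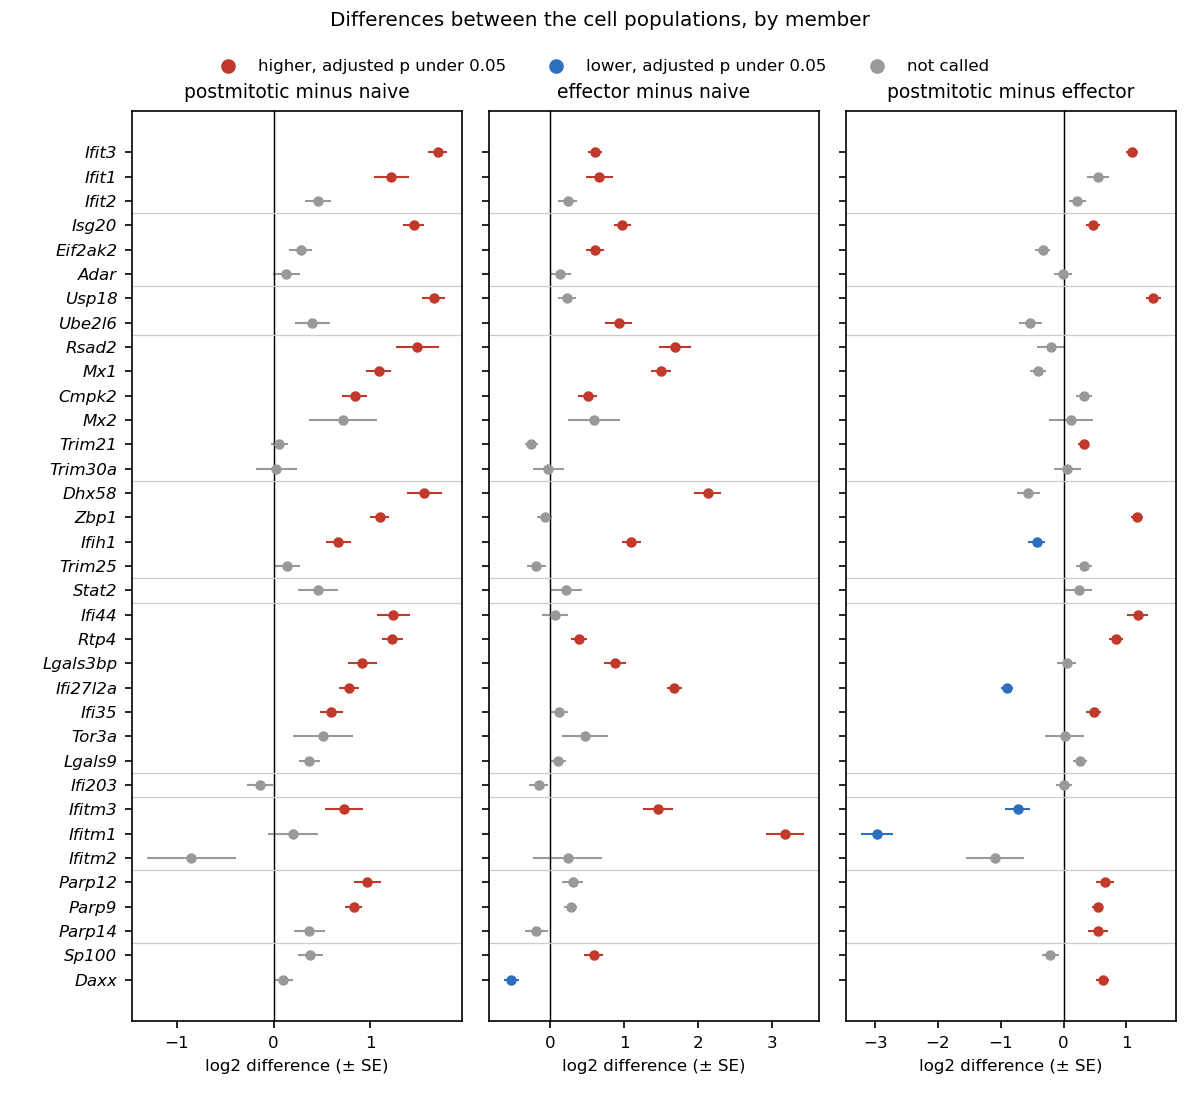
Points are log2 differences with their standard errors from limma, for postmitotic minus naive, effector minus naive and postmitotic minus effector cells, with members grouped by role. Red marks members called higher, blue those called lower and grey those not called at an adjusted p of 0.05. Postmitotic minus naive cells has 18 red and 0 blue points, and postmitotic minus effector cells has 12 red and 4 blue.

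Promoter windows of RefSeq genes (assembly GRCm38.p6, from 250 bases before to 50 bases after the annotated start, 300 in all) were searched for the core of the interferon-stimulated response element. The motif was GAAA followed by any 2 bases and a further GAAA, on either strand, so that on the opposite strand it reads TTTC, any 2 bases, TTTC. A window was given for 25 of the 35 members, and 12 of these (48.0%) held the motif, against 3.85% of the 10062 tested genes with a window and 3.44% of all 32851 windows. The gamma-activated site motif TTCNNNGAA, which reads the same on both strands, was in 6 of the 25 (24.0%), against 8.46% of tested genes. The 12 with the response element core were Ifit1, Ifit3, Rsad2, Ifih1, Stat2, Trim21, Trim30a, Ifi203, Ifitm2, Ifitm3, Eif2ak2 and Lgals9. Limma called 5 of these 12 higher in postmitotic than in naive cells, with a median log2 difference of 0.42, and 6 of the 13 members with a window and no motif, with a median of 0.46. In effector minus naive cells 6 of the 12 and 6 of the 13 were called higher. Members with and without the motif were thus called higher in similar number. The 10 members with no window given, Usp18, Dhx58, Mx1, Mx2, Rtp4, Ifi27l2a, Zbp1, Parp9, Parp14 and Tor3a, had a median of 0.96 in postmitotic minus naive cells.

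**Figure D3:**
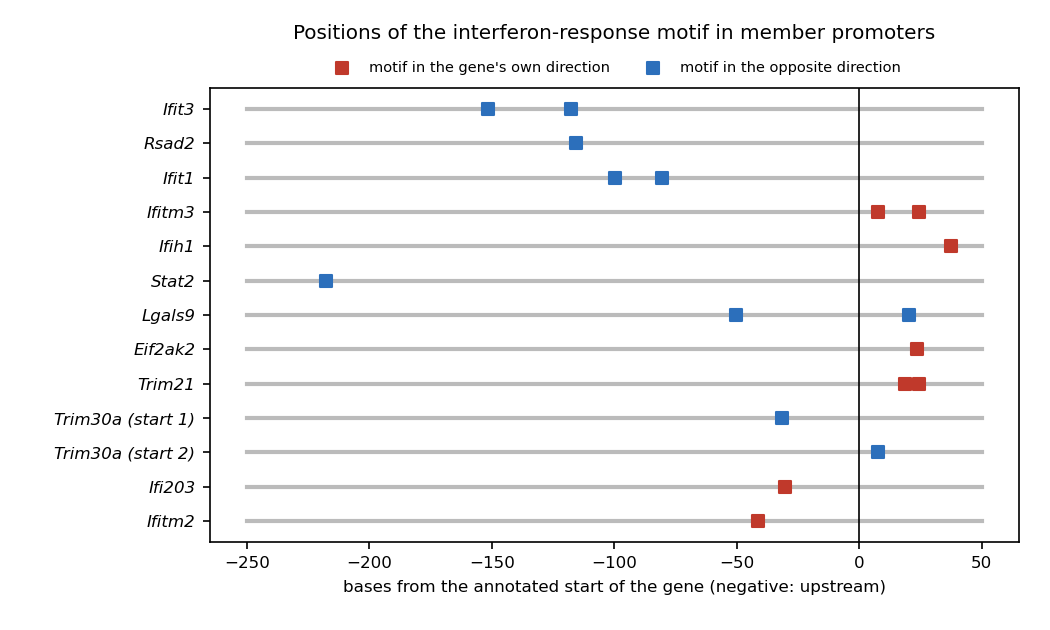
Grey bars are the promoter windows of the 12 members with the response element core, 1 bar for each annotated start, and the horizontal axis gives the distance in bases from that start. Squares mark the middle of each motif, red in the direction of the gene and blue in the opposite direction. In Ifit3, Rsad2 and Ifit1 the motifs lie upstream in the opposite direction, and in Ifitm3, Ifih1, Eif2ak2 and Trim21 they lie downstream of the start.

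The IFIT proteins bind viral RNA, Ifit1 recognising caps that lack the host's methylation, and in human cells IFIT3 stabilises IFIT1. Ifit3 and Ifit1 were called higher in both recipient populations than in naive cells, and Ifit2 in neither. Ifit3 read 12.70, 12.76 and 12.55 on the postmitotic arrays, 11.57, 11.60 and 11.59 on the effector arrays and 10.82, 10.99 and 11.11 on the naive arrays. No group overlapped another, with postmitotic arrays on top and naive arrays at the bottom. The rise was 3.25-fold in postmitotic against naive cells (log2 1.70 ± 0.10 SE, limma adjusted p = 0.000144) and 1.53-fold in effector against naive cells (0.61 ± 0.10, 0.00236). Postmitotic cells stood 2.12-fold above effector cells (1.09 ± 0.10, 0.00014). Ifit1 read 10.14, 10.27 and 9.71 in postmitotic, 9.60, 9.47 and 9.39 in effector and 8.57, 9.11 and 8.78 in naive cells. Its postmitotic arrays all lay above its effector arrays, and these above its naive arrays. It was called in postmitotic minus naive cells (1.22 ± 0.18, limma adjusted p = 0.00583) and in effector minus naive cells (0.67 ± 0.18, 0.0251). The second of these calls was lost when any 1 of naive arrays 1 and 3 or effector arrays 1, 2 and 3 was left out (adjusted p 0.0515 to 0.0820). Its difference between postmitotic and effector cells, 0.55 ± 0.18, did not pass (0.0612). Ifit2 averaged 10.60 ± 0.15, 10.38 ± 0.03 and 10.14 ± 0.23 in postmitotic, effector and naive cells (SD, n = 3), the same order of means, without a call (0.46 ± 0.13 SE in postmitotic minus naive cells, limma adjusted p = 0.0611).

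The promoters printed here and below are those of the members with the motif and the largest absolute postmitotic minus naive differences. Ifit3 had the largest such difference of all members on the deposited scale, and the Ifit3 and Ifit1 windows both hold the motif at 2 places. The reference sequence is that of another inbred strain than the C3H.SW donors. Capitals mark the response element core, here on the opposite strand, whose first printed base lay 156 and 122 bases before the start of Ifit3 and 104 and 85 bases before the start of Ifit1. The Ifit3 window is chr19:34583279-34583578, plus strand, and the Ifit1 window is chr19:34640639-34640938, plus strand.
Ifit3: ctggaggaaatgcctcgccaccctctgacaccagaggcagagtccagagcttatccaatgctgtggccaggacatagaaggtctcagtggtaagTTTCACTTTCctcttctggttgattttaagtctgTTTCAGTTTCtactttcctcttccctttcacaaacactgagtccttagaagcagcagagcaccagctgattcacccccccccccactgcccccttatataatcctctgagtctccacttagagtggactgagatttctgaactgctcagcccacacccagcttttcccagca
Ifit1: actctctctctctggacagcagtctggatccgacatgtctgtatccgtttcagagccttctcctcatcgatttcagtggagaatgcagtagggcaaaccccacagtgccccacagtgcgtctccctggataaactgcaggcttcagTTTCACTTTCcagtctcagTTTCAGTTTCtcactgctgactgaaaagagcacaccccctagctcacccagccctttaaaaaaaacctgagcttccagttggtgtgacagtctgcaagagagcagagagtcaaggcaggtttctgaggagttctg

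Isg20, Eif2ak2 and Adar act on RNA. Isg20, an exonuclease that degrades RNA, was called higher in both recipient populations, and Eif2ak2, the double-stranded RNA-activated kinase PKR that stops translation, in effector cells only. Isg20 read 11.92, 11.81 and 11.72 in postmitotic, 11.50, 11.22 and 11.32 in effector and 10.39, 10.44 and 10.27 in naive cells. The groups were separated on all arrays, with the effector arrays nearer to the postmitotic than to the naive ones. Isg20 was 2.73-fold higher in postmitotic than in naive cells (log2 1.45 ± 0.11 SE, limma adjusted p = 0.000368) and 1.97-fold higher in effector than in naive cells (0.98 ± 0.11, 0.00025). The step between postmitotic and effector cells was smaller (0.47 ± 0.11, 0.0138) and did not pass without effector array 2 (0.0567), effector array 3 (0.0541) or both arrays with Y-linked signal (0.0686). Eif2ak2 averaged 7.94 ± 0.13 in postmitotic, 8.27 ± 0.11 in effector and 7.66 ± 0.16 in naive cells (SD, n = 3). It passed in effector minus naive cells alone (0.61 ± 0.12 SE, limma adjusted p = 0.00546), and its other probe set showed no difference there (0.00). Adar, which edits adenosines in double-stranded RNA, averaged 8.66 ± 0.25, 8.67 ± 0.11 and 8.53 ± 0.12 in postmitotic, effector and naive cells and had no call.

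Usp18 and Ube2l6 belong to the system that attaches the ubiquitin-like protein ISG15 to other proteins. Usp18 removes ISG15 and blocks signalling at the type I interferon receptor, and Ube2l6 is the conjugating enzyme. Usp18 was called higher in postmitotic cells than in both other groups, and Ube2l6 was called in effector minus naive cells only. Usp18 read 11.76, 11.94 and 11.64 in postmitotic, 10.21, 10.42 and 10.43 in effector and 10.14, 9.99 and 10.25 in naive cells. Its postmitotic arrays stood clear of the other 6, among which effector and naive arrays overlapped. Usp18 was 3.15-fold higher in postmitotic than in naive cells (log2 1.66 ± 0.12 SE, limma adjusted p = 0.000338) and 2.69-fold higher than in effector cells (1.43 ± 0.12, 7.87e-05). On the deposited scale this last difference was the largest positive one of any member between these populations, and effector minus naive cells gave 0.23 ± 0.12 (0.207). The rank depends on the offset: with an offset of 16, the dimmer Ifi44 gave 1.90 in postmitotic minus effector cells. Ube2l6 read 6.48, 7.17 and 6.93 in postmitotic, 7.44, 7.28 and 7.47 in effector and 6.64, 6.43 and 6.32 in naive cells, whose mean of 6.46 is below zero signal. The effector arrays were all above the naive arrays, and the lowest postmitotic array lay within the naive range. Its difference in effector minus naive cells was 0.93 ± 0.18 (limma adjusted p = 0.00472), and in postmitotic minus effector cells -0.53 ± 0.18 (0.0639).

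**Figure D4:**
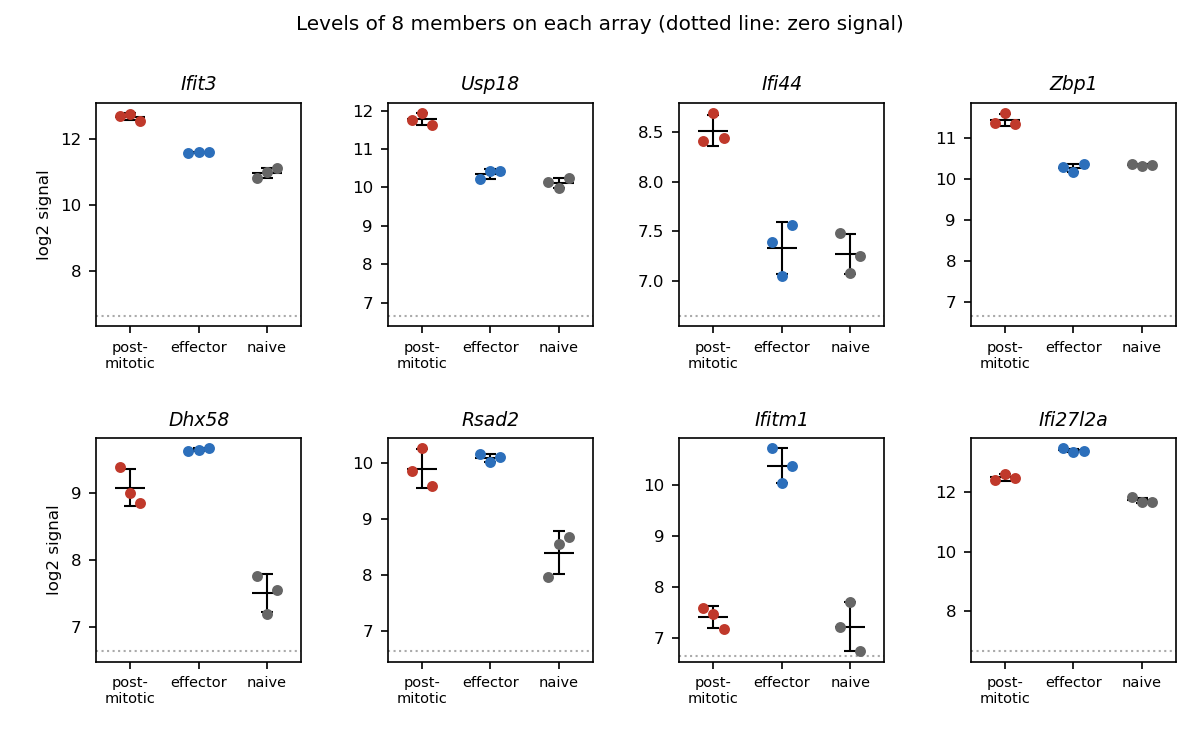
Each panel gives the log2 signal of 1 member on each array, with bars for the mean ± SD of the 3 arrays of a group and a dotted line at zero signal (6.64). In the upper panels (Ifit3, Usp18, Ifi44, Zbp1) the postmitotic arrays are highest, and in the lower panels (Dhx58, Rsad2, Ifitm1, Ifi27l2a) the effector arrays all lie above the postmitotic arrays, except in Rsad2, where they overlap.

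Among the antiviral effectors, Rsad2, Mx1 and Cmpk2 were called higher in both recipient populations than in naive cells, whereas Mx2 and Trim30a were not called and Trim21 differed between the recipient populations alone. Rsad2 (viperin) makes a nucleotide that ends viral RNA chains, and its genomic neighbour Cmpk2 encodes a mitochondrial nucleotide kinase. Rsad2 read 9.85, 10.26 and 9.58 in postmitotic, 10.16, 10.02 and 10.10 in effector and 7.97, 8.56 and 8.68 in naive cells. Postmitotic and effector arrays overlapped, and all 6 lay above the naive arrays. The rise was 2.81-fold in postmitotic cells (log2 1.49 ± 0.22 SE, limma adjusted p = 0.00564) and 3.22-fold in effector cells (1.69 ± 0.22, 0.000625). Of its further probe sets, one gave similar differences (1.12 and 1.34) and one, at most 7.95 on any array, gave 0.13 and -0.02. Cmpk2 was 0.84 ± 0.13 higher in postmitotic and 0.51 ± 0.13 higher in effector cells than in naive cells (limma adjusted p = 0.00587 and 0.0156), and the second call was lost without naive array 2 (0.0503) or effector array 3 (0.0645).

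The Rsad2 promoter (chr12:26456403-26456702, minus strand) is printed in the direction of the gene. Its single motif, in capitals and on the opposite strand, began 120 bases before the start.
Rsad2: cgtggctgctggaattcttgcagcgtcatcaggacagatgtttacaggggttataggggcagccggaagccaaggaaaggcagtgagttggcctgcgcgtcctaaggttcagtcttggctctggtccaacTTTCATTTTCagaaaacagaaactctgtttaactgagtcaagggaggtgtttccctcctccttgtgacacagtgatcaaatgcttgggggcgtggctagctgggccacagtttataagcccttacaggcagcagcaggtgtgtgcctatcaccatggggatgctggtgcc

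Mx1, a GTPase that blocks influenza viruses and that many inbred mouse strains carry in a defective form, read 8.73, 8.78 and 8.75 in postmitotic, 9.28, 9.08 and 9.14 in effector and 7.54, 7.94 and 7.51 in naive cells. Effector arrays were the highest and naive arrays the lowest, without overlap. Mx1 was 2.13-fold higher in postmitotic (log2 1.09 ± 0.13 SE, limma adjusted p = 0.00233) and 2.84-fold higher in effector than in naive cells (1.5 ± 0.13, 6.27e-05). Its postmitotic minus effector difference, -0.41 ± 0.13, lay at the threshold and did not pass (adjusted p = 0.05). Mx2, whose mouse protein acts in the cytoplasm, averaged 6.94 ± 0.46, 6.82 ± 0.32 and 6.21 ± 0.62 in postmitotic, effector and naive cells, near or below zero signal, and was not called. Trim21, a cytosolic antibody receptor and ubiquitin ligase, averaged 10.87 ± 0.04 in postmitotic, 10.55 ± 0.12 in effector and 10.81 ± 0.02 in naive cells. It passed in postmitotic minus effector cells (0.32 ± 0.09 SE, limma adjusted p = 0.0359), a call lost in 10 of 17 alternative settings, among them leaving out any 1 of naive array 3, effector arrays 2 and 3 and postmitotic arrays 1, 2 and 3 (0.0573 to 0.135 over the 10). Trim30a, which dampens Toll-like receptor signalling in mice, read 12.58, 12.99 and 13.25 in postmitotic, 13.18, 12.56 and 12.90 in effector and 12.78, 13.02 and 12.91 in naive cells, with full overlap. Its second probe set disagreed, with 0.45 in postmitotic minus naive and 0.56 in postmitotic minus effector cells, both without overlap.

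The members that detect foreign RNA or its handling differed in their order. Dhx58 (LGP2) and Ifih1 (MDA5), helicases of the RIG-I family that bind double-stranded RNA, were called higher in both recipient populations and had their highest means in effector cells. Zbp1, a sensor of Z-form nucleic acids that can trigger cell death, was called highest in postmitotic cells. Dhx58 read 9.38, 9.00 and 8.85 in postmitotic, 9.62, 9.64 and 9.66 in effector and 7.77, 7.20 and 7.56 in naive cells. The 3 groups were separated, with a wide gap above the naive arrays. The increase was 2.96-fold in postmitotic (log2 1.56 ± 0.18 SE, limma adjusted p = 0.00205) and 4.37-fold in effector cells (2.13 ± 0.18, 5.36e-05), and postmitotic minus effector cells gave -0.56 ± 0.18 (0.0514). Its other probe sets, both dimmer, gave -0.25 and 0.67 in postmitotic and 0.07 and -0.11 in effector minus naive cells. Dhx58 therefore rests on 1 of 3 probe sets.

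Ifih1 read 11.40, 11.25 and 10.98 in postmitotic, 11.76, 11.50 and 11.66 in effector and 10.45, 10.62 and 10.54 in naive cells. The groups did not overlap, effector arrays being highest. It was 1.60-fold higher in postmitotic (0.67 ± 0.13, limma adjusted p = 0.0147) and 2.15-fold higher in effector than in naive cells (1.10 ± 0.13, 0.000341). The postmitotic minus effector difference of -0.43 ± 0.13 passed (0.043) but was lost in 11 of 17 alternative settings (0.0503 to 0.226). In postmitotic minus naive cells Ifih1 did not pass without postmitotic array 2 (0.0502) or with only the 6 arrays compared (0.0558). Its promoter window (chr2:62646206-62646505, minus strand) is printed in the direction of the gene. The window holds the motif in that direction, in capitals, beginning 33 bases after the start.
Ifih1: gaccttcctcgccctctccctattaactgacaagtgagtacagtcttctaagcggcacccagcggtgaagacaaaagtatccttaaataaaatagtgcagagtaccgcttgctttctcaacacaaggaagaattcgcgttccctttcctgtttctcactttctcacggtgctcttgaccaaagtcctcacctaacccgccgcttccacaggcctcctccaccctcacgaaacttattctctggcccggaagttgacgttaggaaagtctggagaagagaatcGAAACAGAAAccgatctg

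Zbp1 read 11.36, 11.60 and 11.34 in postmitotic, 10.29, 10.15 and 10.35 in effector and 10.36, 10.31 and 10.34 in naive cells. The postmitotic arrays stood apart, and effector and naive arrays overlapped. Zbp1 was 2.14-fold higher in postmitotic than in naive cells (log2 1.10 ± 0.10 SE, limma adjusted p = 0.000914) and 2.26-fold higher than in effector cells (1.17 ± 0.10, 9.85e-05). Its second probe set was also higher in postmitotic than in naive and effector cells (1.63 and 0.87) but was 0.76 higher in effector than in naive cells, where the first gave -0.07. Trim25, the ubiquitin ligase that acts on RIG-I, read 13.85, 13.91 and 14.00 in postmitotic, 13.49, 13.69 and 13.62 in effector and 13.53, 14.02 and 13.81 in naive cells. Naive arrays overlapped both other groups, and Trim25 had no call.

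Stat2, the only member that belongs to the interferon signalling chain itself, was not called. It read 7.49, 8.37 and 7.97 in postmitotic, 7.59, 7.80 and 7.71 in effector and 7.38, 7.72 and 7.35 in naive cells. The groups overlapped, and postmitotic minus naive cells gave log2 0.46 ± 0.21 SE (limma adjusted p = 0.217).

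Of 7 further induced genes, 5 were called higher in postmitotic and 3 in effector cells than in naive cells, against 6.13% and 14.5% of all genes. Rtp4, a receptor chaperone, read 12.93, 13.05 and 13.01 in postmitotic, 12.28, 12.03 and 12.14 in effector and 11.72, 11.67 and 11.90 in naive cells. The 3 groups stood in that order without overlap. Rtp4 was 2.35-fold higher in postmitotic than in naive cells (log2 1.23 ± 0.11 SE, limma adjusted p = 0.00063) and 1.80-fold higher than in effector cells (0.84 ± 0.11, 0.000612). The effector minus naive difference of 0.39 ± 0.11 (0.0233) was lost without naive array 1, naive array 2, effector array 1 or effector array 3 (0.0586 to 0.0845). Ifi44, a cytoplasmic protein of uncertain action, read 8.41, 8.69 and 8.44 in postmitotic, 7.39, 7.05 and 7.56 in effector and 7.48, 7.08 and 7.25 in naive cells. Postmitotic arrays lay above all the others, which overlapped one another. The rise was 2.37-fold against naive (1.24 ± 0.17, limma adjusted p = 0.0035) and 2.26-fold against effector cells (1.18 ± 0.17, 0.00116).

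Ifi27l2a, which encodes a small hydrophobic protein, read 12.40, 12.62 and 12.49 in postmitotic, 13.48, 13.36 and 13.37 in effector and 11.83, 11.67 and 11.67 in naive cells. The groups were separated, and here effector cells stood highest. It was 1.72-fold higher in postmitotic (log2 0.78 ± 0.10 SE, limma adjusted p = 0.00294) and 3.20-fold higher in effector than in naive cells (1.68 ± 0.10, 7.15e-06), and 1.87-fold lower in postmitotic than in effector cells (-0.90 ± 0.10, 0.000302). Lgals3bp, a secreted glycoprotein, was called higher in postmitotic (0.92 ± 0.15, limma adjusted p = 0.00683) and effector (0.88 ± 0.15, 0.00226) than in naive cells, and the recipient populations differed by 0.05 ± 0.15. Ifi35, a leucine zipper protein, was higher in postmitotic than in naive (0.60 ± 0.12, limma adjusted p = 0.0174) and effector cells (0.48 ± 0.12, 0.0212). Both Ifi35 calls were lost without postmitotic array 1, without postmitotic array 2 and without both arrays with Y-linked signal, the first also without naive array 3 and the second without effector array 1 or 3 (0.0524 to 0.0698). Lgals9, a galectin that binds inhibitory receptors of T cells, and Tor3a, an endoplasmic reticulum ATPase, differed by 0.37 ± 0.11 and 0.51 ± 0.31 in postmitotic minus naive cells and were not called.

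Ifi203, of the p200 family of nuclear DNA-binding proteins, read 13.90, 13.81 and 13.71 in postmitotic, 13.84, 13.72 and 13.82 in effector and 13.67, 14.16 and 14.01 in naive cells. On this probe set all groups overlapped and no comparison was called. Its 6 probe sets gave postmitotic minus naive differences between -0.47 and 0.20. In effector minus naive cells all 6 were negative. Dimmer probe sets gave -0.32, -0.57 and -0.75 there without overlap, and the others gave -0.15, -0.15 and -0.03 with overlap. With the probe sets averaged, Ifi203 was called lower in effector than in naive cells (-0.33). Near-identical genes of this family may share signal on these probe sets.

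The IFITM proteins sit in membranes and block fusion of enveloped viruses, and the 3 genes had a median log2 difference of 1.46 in effector minus naive cells. Ifitm1 and Ifitm3 were called higher in effector cells than in both other populations, and Ifitm2 had no call. Ifitm1 read 7.58, 7.47 and 7.17 in postmitotic, 10.72, 10.03 and 10.38 in effector and 7.21, 7.69 and 6.73 in naive cells. Effector arrays stood far above the other 6, among which postmitotic and naive arrays overlapped. Ifitm1 was 9.00-fold higher in effector than in naive cells (log2 3.17 ± 0.26 SE, limma adjusted p = 5.26e-05), the largest difference of any member, and 7.85-fold lower in postmitotic than in effector cells (-2.97 ± 0.26, 0.000104). In postmitotic minus naive cells it differed by 0.20 ± 0.26 (0.7).

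Ifitm3 read 8.61, 8.27 and 8.28 in postmitotic, 8.94, 9.19 and 9.20 in effector and 8.05, 7.30 and 7.60 in naive cells. The order was effector, postmitotic and naive, without overlap. It was 2.75-fold higher in effector than in naive cells (log2 1.46 ± 0.20 SE, limma adjusted p = 0.000735). The call in postmitotic minus naive cells (0.73 ± 0.20, 0.0489) was lost in 13 of 17 alternative settings (0.0568 to 0.136), and that in postmitotic minus effector cells (-0.73 ± 0.20, 0.0282) in 6 (0.0827 to 0.192). Ifitm2 read 7.84, 7.45 and 5.85 in postmitotic, 8.16, 7.99 and 8.24 in effector and 8.01, 8.17 and 7.51 in naive cells. Postmitotic array 3, which carried Y-linked signal, was below zero signal and the lowest of the 9, and the differences of -0.85 ± 0.46 against naive and -1.09 ± 0.46 against effector cells did not pass (limma adjusted p = 0.289 and 0.13).

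The 2 neighbouring IFITM promoters are set side by side. Ifitm3 was raised and Ifitm2 was not called, while both windows hold the motif in the direction of the gene. It began 3 and 20 bases after the start of Ifitm3 (chr7:141010695-141010994, minus strand) and 46 bases before the start of Ifitm2 (chr7:140955912-140956211, minus strand). Both are printed in the direction of the gene with the motif in capitals.
Ifitm3: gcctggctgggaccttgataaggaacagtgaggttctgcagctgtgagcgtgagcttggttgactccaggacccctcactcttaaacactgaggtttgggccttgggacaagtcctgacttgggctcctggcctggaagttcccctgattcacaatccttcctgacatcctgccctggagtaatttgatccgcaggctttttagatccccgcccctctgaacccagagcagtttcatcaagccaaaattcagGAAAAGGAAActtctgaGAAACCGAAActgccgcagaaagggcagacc
Ifitm2: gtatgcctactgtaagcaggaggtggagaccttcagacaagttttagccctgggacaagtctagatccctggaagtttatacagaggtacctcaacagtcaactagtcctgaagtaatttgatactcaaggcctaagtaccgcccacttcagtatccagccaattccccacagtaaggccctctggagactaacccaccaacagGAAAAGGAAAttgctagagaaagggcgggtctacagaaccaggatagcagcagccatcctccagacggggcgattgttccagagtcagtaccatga

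All 3 PARP family members, enzymes that attach ADP-ribose to proteins or are inactive partners of such enzymes, were called higher in postmitotic than in effector cells. Parp12 and Parp9 were also called higher than in naive cells, by log2 0.97 ± 0.14 SE and 0.83 ± 0.09 (limma adjusted p = 0.00564 and 0.00206), and exceeded effector cells by 0.66 ± 0.14 and 0.54 ± 0.09 (0.0108 and 0.00361). Neither was called in effector minus naive cells (0.31 ± 0.14 and 0.28 ± 0.09, limma adjusted p = 0.151 and 0.0536). Parp14 read 12.75, 13.00 and 13.09 in postmitotic, 12.34, 12.44 and 12.42 in effector and 12.26, 12.81 and 12.66 in naive cells. Its postmitotic arrays were above its effector arrays, and naive array 2 overlapped them. Postmitotic minus effector cells gave 0.55 ± 0.16 (limma adjusted p = 0.0344), a call lost in 7 of 17 alternative settings (0.0509 to 0.191).

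Sp100 and Daxx are proteins of the PML nuclear bodies, Daxx being a histone chaperone. Sp100 was higher in effector than in naive cells (log2 0.59 ± 0.13 SE, limma adjusted p = 0.0104), a call lost without both arrays with Y-linked signal (0.0606). Daxx read 12.03, 12.16 and 12.15 in postmitotic, 11.56, 11.43 and 11.50 in effector and 11.85, 12.09 and 12.10 in naive cells. Effector arrays were the lowest, and postmitotic and naive arrays overlapped. It was 1.43-fold lower in effector than in naive cells (-0.52 ± 0.10, limma adjusted p = 0.00519) and 1.53-fold higher in postmitotic than in effector cells (0.62 ± 0.10, 0.00266), the one member called lower in effector cells than in naive cells.

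Of 10 measured interferons, Ifng, which encodes interferon gamma, was called in all comparisons. Ifng read 9.15, 8.84 and 8.84 in postmitotic, 14.65, 14.63 and 14.61 in effector and 6.55, 7.12 and 7.05 in naive cells. The effector arrays were far above the postmitotic arrays, which exceeded the naive arrays near zero signal. The differences were log2 2.04 ± 0.16 SE in postmitotic minus naive, 7.72 ± 0.16 in effector minus naive and -5.68 ± 0.16 in postmitotic minus effector cells (limma adjusted p = 0.0005, 8.55e-08 and 9.43e-07). The other 9 measured interferons were type I genes at or below 7.96 on every array. Of these, Ifnab was called lower in effector than in naive cells (-0.78 ± 0.25, limma adjusted p = 0.0482), and Ifnb1, encoding interferon beta, averaged 7.58 ± 0.19, 7.38 ± 0.49 and 7.43 ± 0.16 in postmitotic, effector and naive cells without a call. Ifna9 lay at the lowest possible value on all arrays.

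Of 20 genes for interferon receptors and signalling, 6 were called higher and 4 lower in postmitotic than in naive cells, 4 higher and 7 lower in effector than in naive cells, and 8 higher and 4 lower in postmitotic than in effector cells. The shares of all genes called higher and lower were 6.13% and 5.70%, 14.5% and 16.3%, and 13.2% and 11.8% in these comparisons. Among the receptor chains, Ifnar2 of the type I receptor was higher in postmitotic than in naive (log2 0.95 ± 0.12 SE, limma adjusted p = 0.0033) and effector cells (0.77 ± 0.12, 0.00233). Its partner Ifnar1 was lower in effector than in naive cells (-0.32). Il10rb, shared by the receptors of interferon lambda and interleukin 10, was higher in postmitotic than in naive cells (0.67). For interferon gamma, Ifngr2 was lower than in naive cells in postmitotic (-0.63 ± 0.16, limma adjusted p = 0.0405) and effector cells (-1.76 ± 0.16, 8.42e-05) and 1.13 higher in postmitotic than in effector cells, and Ifngr1 was 0.36 higher in postmitotic than in effector cells.

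Downstream of the receptors, Irf7, the factor that amplifies type I interferon responses, was called highest in postmitotic cells. Irf7 read 10.45, 10.60 and 10.59 in postmitotic, 9.82, 9.86 and 9.86 in effector and 9.70, 9.68 and 9.63 in naive cells, a rise of log2 0.88 ± 0.08 SE over naive cells (limma adjusted p = 0.00095) and 0.70 ± 0.08 over effector cells (0.000472). The groups did not overlap, with effector arrays close to naive ones. Irf8, a factor also used in effector T cells, was highest in effector cells, 3.22 above naive cells, with -2.25 in postmitotic minus effector and 0.97 in postmitotic minus naive cells. Jak1 was lower than in naive cells in both postmitotic (-0.60) and effector cells (-0.81), as was the STAT inhibitor Pias1 (-0.50 and -0.79). Irf2, a repressor of interferon-stimulated genes, was lower in postmitotic than in naive cells (-0.63), and Irf3, which starts interferon transcription, was lower in effector than in naive cells (-0.58) and 0.35 higher in postmitotic than in effector cells. Jak2, Tyk2 and the phosphatase gene Ptpn11 were higher in effector than in naive cells (0.39, 0.46 and 1.01) and lower in postmitotic than in effector cells (-0.50, -0.65 and -1.30). Ptpn6, another phosphatase, went the opposite way (-1.18 and 1.06), and Irf9, Irf1 and Ptpn2 were not called.

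Socs1 and Socs3, feedback inhibitors of cytokine receptors, were called highest in postmitotic cells. Socs1 read 9.66, 9.63 and 9.87 in postmitotic, 8.01, 8.64 and 8.56 in effector and 8.98, 8.63 and 8.89 in naive cells. Postmitotic arrays were highest, and effector and naive arrays overlapped. Socs1 was 0.89 ± 0.18 higher in postmitotic than in naive cells and 1.32 ± 0.18 higher than in effector cells (limma adjusted p = 0.018 and 0.00102). Socs3, which mainly restrains Stat3 signalling, was 1.35 ± 0.13 higher in postmitotic and fell by 1.14 on the log2 scale in effector against naive cells, with 2.49 ± 0.13 between postmitotic and effector cells (limma adjusted p = 0.000914, 0.00025 and 9.1e-06).

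**Figure D5:**
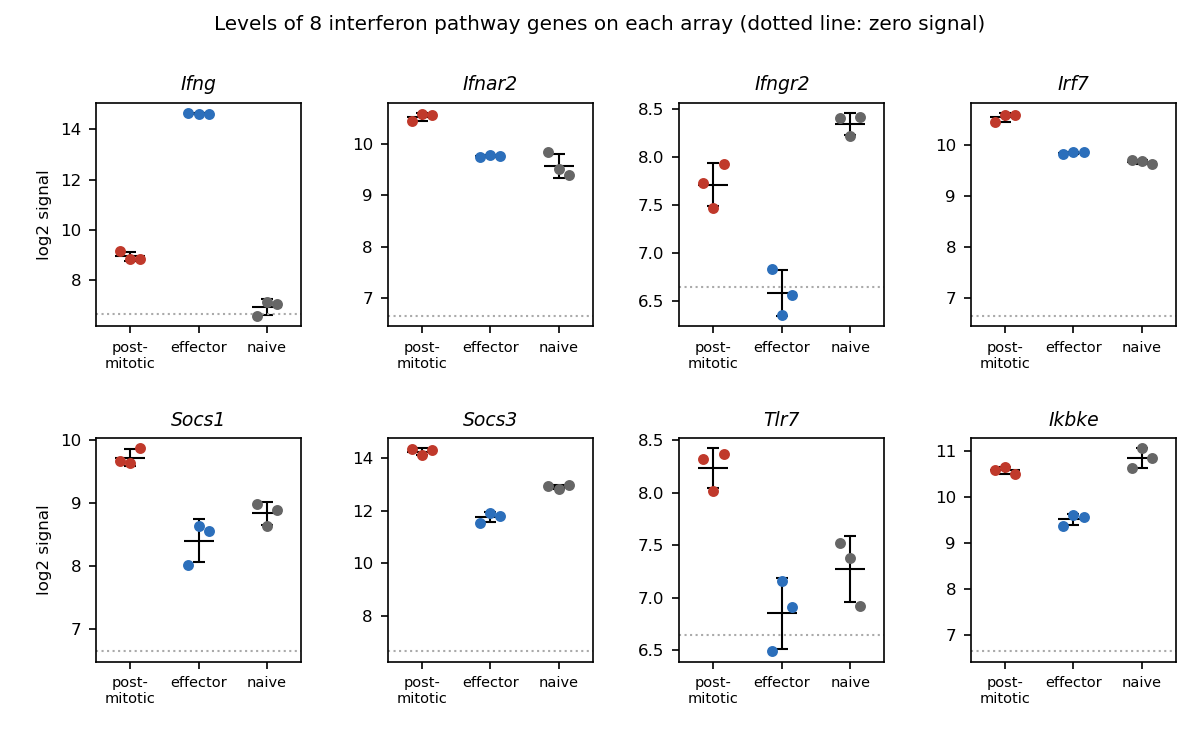
Each panel gives the log2 signal of 1 interferon pathway gene on each array, with bars for the mean ± SD of the 3 arrays and a dotted line at zero signal. Ifng is highest in effector cells, whereas Ifnar2, Irf7, Socs1, Socs3 and Tlr7 are highest in postmitotic cells and Ifngr2 and Ikbke are lowest in effector cells.

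Of 15 genes that sense nucleic acids, relay that signal or serve the ISG15 system, 2 were called higher and 0 lower in postmitotic than in naive cells, 1 higher and 2 lower in effector than in naive cells, and 5 higher and 2 lower in postmitotic than in effector cells. With 6.13% of all genes called higher in postmitotic minus naive cells, 14.5% higher and 16.3% lower in effector minus naive cells, and 13.2% higher and 11.8% lower in postmitotic minus effector cells, most of these counts are near the background. Tlr7, a receptor for single-stranded RNA in endosomes, read 8.32, 8.02 and 8.37 in postmitotic, 6.49, 7.16 and 6.91 in effector and 7.52, 7.38 and 6.92 in naive cells. Postmitotic arrays stood above the others (log2 0.96 ± 0.22 SE against naive and 1.38 ± 0.22 against effector cells, limma adjusted p = 0.0258 and 0.00198). Tlr7 is also a gene of B cells and plasmacytoid dendritic cells, and the part of such cells was not tested. Its adaptor Myd88 was higher in postmitotic than in naive (0.46) and effector cells (0.32). Ikbke, a kinase that activates Irf3, was lower in effector than in naive cells (-1.33) and 1.07 higher in postmitotic than in effector cells. Uba7, the activating enzyme of the ISG15 system, was likewise lower in effector than in naive cells (-0.57) and 0.67 higher in postmitotic than in effector cells. The kinase adaptor Tank was higher in effector than in naive cells (0.96) and lower in postmitotic than in effector cells (-0.97). Traf6 was 0.36 higher and Azi2 lower (-0.47) in postmitotic than in effector cells.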

How the data were processed

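RNA of 9 preparations, 3 for each of 3 CD8+ T cell populations, was measured on 9 Affymetrix mouse arrays. Per the labels' protocols, 600 ng of RNA was amplified by reverse transcription and in vitro transcription in 2 rounds. The deposited log2 values are, per the deposited readme, trimmed-mean signals per probe set that the authors quantile-normalized to 1 naive array, offset by 50 before and by 50 after negative values were set to 0, and log2-transformed. Zero signal reads 6.64 and the lowest possible value is 5.64. A change in the RNA total per cell leaves no trace after this normalization. The authors' deposited score marks probe sets with a p under 0.01 and a 1.5-fold difference; it served as an alternative. The sources used here do not give a software version.

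Of 22690 probe sets, 64 were controls, 826 named several genes and 541 none, and these were left out. Symbols were updated by Entrez number in a RefSeq table (GRCm38.p6; 20752 of 21259 probe sets matched). The probe set with the highest mean stood for each of 13152 genes. Limma (version 3.58.1, R 4.3.3; lmFit and eBayes, 6 residual and 2.14 prior degrees of freedom) fitted a mean per group on all 9 arrays without covariates, p-values were adjusted over all 13152 genes by the Benjamini-Hochberg method, and genes were called at an adjusted p under 0.05. The script was tested on simulated data. The number of arrays limits the precision, and the p-values measure the spread between pooled preparations.

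Members, pathway lists, markers and tests were chosen with earlier results of these data known. All members with a value are named; values on every array are given for the 6 largest called differences of each comparison, for the brightest member of each role and for others of interest, and every pathway gene called in any comparison is named, apart from some listed genes that are not reported here. Alternatives were the mean of all probe sets, a filter on low values (over 1 log2 unit above zero signal on at least 3 arrays), an offset of 16, cyclic loess, a trended robust prior, only the 6 arrays compared, the replicate number as a block, each array left out, both arrays with Y-linked signal left out, and other thresholds.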

Additional observations from a re-analysis of the deposited data

How the results depend on the processing

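The 18, 17 and 16 member calls of postmitotic minus naive, effector minus naive and postmitotic minus effector cells were all kept under every alternative fit run for 15, 12 and 10 members. Leaving out 1 array gave 15 to 19 members higher and 0 to 0 lower in postmitotic minus naive, 13 to 16 higher and 1 to 1 lower in effector minus naive, and 8 to 13 higher and 2 to 5 lower in postmitotic minus effector cells. The shares of all genes called under the alternative settings of this section are not given here, so its counts have no background beside them. In postmitotic minus effector cells 7 members were higher at an adjusted p under 0.01, with a 1.5-fold minimum and by the authors' selection. There 2 were lower at an adjusted p under 0.01, by the authors' selection, without both arrays with Y-linked signal, and without effector array 2, effector array 3 or postmitotic array 3, and 7 with the filter on low values, which kept 8307 genes and so 33 members. In effector minus naive cells 0 were lower with the 1.5-fold minimum or by the authors' selection, and 2 with the mean of all probe sets, the filter, the offset of 16 or the trended prior. Of 1779 single-member values under alternatives, 1663 stayed on their side of the threshold, where the sign of values not called under either setting was not compared, 76 lost and 39 gained a call, and 1 reversed: Zbp1 in effector minus naive cells gave 0.34 (limma adjusted p = 0.0381) when its probe sets were averaged. So averaged, Azi2 in effector minus naive cells (-0.38) and Traf6 in postmitotic minus effector cells (-0.13) also reversed; these probe sets disagree. With the replicate number as a block, 17 members were higher and 0 lower in postmitotic minus naive cells. The counts were 16 and 1 in effector minus naive, and 11 and 4 in postmitotic minus effector cells. Deviations of same-numbered arrays correlated at 0.015 to 0.062 and other pairs at -0.052 to 0.018. This is a hint, from the data only, that same-numbered arrays are related, and the main fit treated all arrays as independent. What same-numbered arrays share is not stated in the labels and was not tested. Members near zero signal, Mx2 and Ube2l6, are limited by brightness.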
